A study of Mus musculus with 12 samples.

Results

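The genes described here encode apolipoproteins, a lipid transfer protein, lipases and receptors through which liver makes, trims and takes up lipoproteins. The family was set by name: Apoa1, Apoa4, Apoa5, Apob, Apoc3, Mttp, Lpl, Lipc, Scarb1 and Cd36. Of these 10 genes, 9 were named by at least 1 probeset with a single gene in the platform annotation, all 9 were bright enough to be tested, and they stood among 11899 tested genes. Lipc, which encodes hepatic lipase, was not analysed here. Liver RNA came from 12 male C57BL/6 mice, 1 Affymetrix array per mouse. In 6 of them low-dose penicillin was supplied in the drinking water after weaning, and the other 6 were controls without antibiotics; livers were taken after 7 weeks of intervention. No allele, transgene or other agent is named in the labels, and neither the dose, the hour of collection nor the cages of the mice were given in the sources used here.

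Hepatocytes load triglyceride onto apolipoprotein B with the help of the microsomal triglyceride transfer protein and secrete the product as very low density lipoprotein. In the circulation lipoprotein lipase hydrolyses that triglyceride, and apolipoproteins C-III and A-V slow and aid this step. High density lipoprotein is built on apolipoprotein A-I and gives up its cholesterol esters to the liver through the receptor SR-BI, while the scavenger receptor CD36 takes up long-chain fatty acids and oxidised lipoproteins. In adult mice the liver makes most of the apolipoproteins, whereas lipoprotein lipase is made chiefly in fat and muscle, with a low level in liver.

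The hepatocyte genes Alb and Ttr were near the top of the scale on every array. Alb, which encodes albumin, lay between 14.93 and 15.02 in log2 intensity on all 12 arrays, and Ttr, which encodes transthyretin, between 14.68 and 14.76. Other hepatocyte markers lay lower, with Cps1 at 14.05 to 14.23, Asgr1 at 12.38 to 12.69 and Tat at 12.21 to 13.60. Of these 5 markers, 1 was higher and 4 were lower in penicillin livers. Any 2 arrays correlated at 0.980 to 0.997 over genes. Arrays of both groups stood apart in gene sets that respond quickly to handling, hour or inflammation. A list of 12 measured immediate early genes averaged 2.28, 2.32 and 1.62 above its overall mean in control 1, control 3 and control 5 on the log2 scale, against -0.94 to -0.68 in the penicillin arrays and -0.86 to -0.32 in the other controls. The mean of a list of 12 clock genes was high in penicillin 1, penicillin 5, penicillin 6 and control 6 (0.34 to 0.50). Of these genes 6 were higher and 6 lower in penicillin livers, and whether their mean follows the hour was not tested. A list of 12 acute phase genes was high in control 6 (1.74). The neutrophil markers that passed the filter (S100a8 and S100a9, 2 of 5, with Ngp and Camp under it) averaged -1.69 to -0.51 in penicillin and -0.32 to 2.28 in control livers, with no overlap and 0 genes passing in limma. Enterocyte markers (Fabp2 and Apobec1, 2 of 6, with Vil1, Lct and Alpi under the filter) averaged 0.02 to 0.18 in penicillin and -0.26 to -0.0015 in control livers. Of these 2 genes 1 was higher and 1 lower, and whether they mark gut cells in these samples was not tested. The part of these lists in the results for Lpl, Scarb1 and Cd36 was not tested. Nothing states that the mice of a group were housed apart, and p-values set each group difference against the spread between these 12 arrays.

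The comparison of penicillin with control asked whether lipoprotein genes of the liver differed after the treatment. The 5 apolipoprotein genes differed between the groups by less than 0.03 on the log2 scale, and Mttp by 0.11. Cd36 stood 1.40-fold higher in penicillin livers, while Lpl stood 1.55-fold and Scarb1 1.23-fold lower. None passed: limma called 0 of the 9 genes after Benjamini-Hochberg adjustment over all genes, as it called 0 of 11899 (0% of all genes). At an unadjusted p under 0.05 there were 3 of the 9, 1 higher (Cd36) and 2 lower (Lpl and Scarb1), beside 7.98% of all genes tested, with 4.33% higher and 3.66% lower. Leaving out control 1, control 3 and control 5 gave 2 of 9, Lpl and Scarb1, beside 4.1% of all genes tested. Leaving out control 6, penicillin 1, penicillin 5 and penicillin 6 also gave 2 of 9, here Scarb1 and Cd36, beside 7.25% of all genes. The median difference was -0.01 over the 9 genes and 0.01 over all genes tested, and the groups overlapped in all 9, beside 0.412% of all genes whose groups did not overlap. The family was chosen with earlier results of these data known, so these counts are a description.

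**Figure D1:**
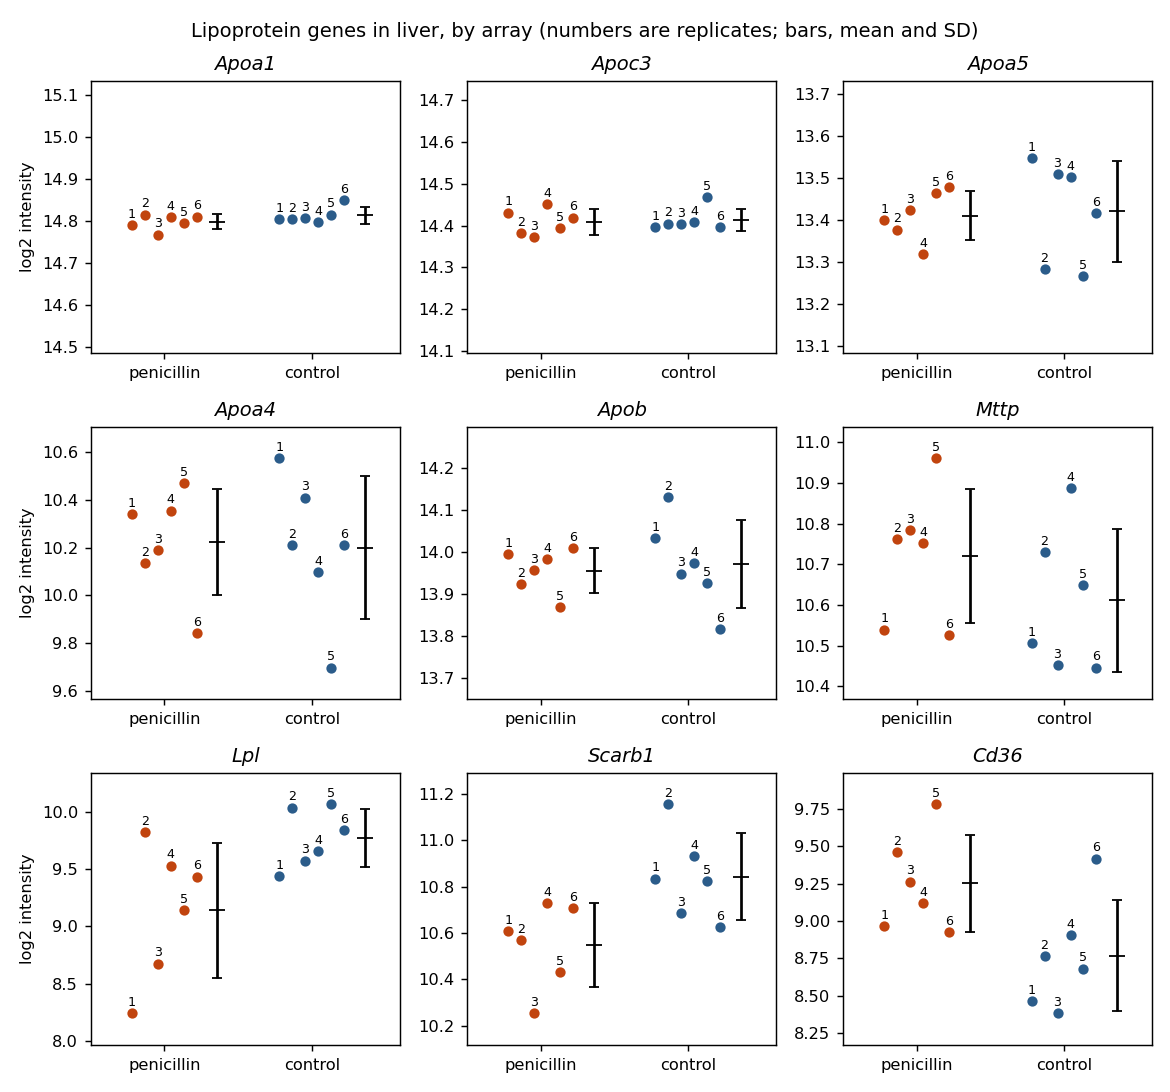
Log2 intensity of the brightest probeset of each of 9 lipoprotein genes on each array, penicillin at left and control at right of each panel. Numbers are replicate numbers and bars give the mean and SD of 6 arrays; each panel has its own axis. Cd36 lies at 8.93 to 9.78 in penicillin livers and 8.38 to 9.42 in controls, while Apoa1 and Apoc3 barely vary.

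The apolipoproteins of high density lipoprotein and their neighbours on the chromosome differed little between the groups. Apoa1, Apoc3, Apoa4 and Apoa5 follow each other on chromosome 9 with 0 other genes between them in the RefSeq table of GRCm38.p6. Apoa1, which encodes the main protein of high density lipoprotein, had a lowest, median and highest log2 intensity of 14.77, 14.80 and 14.81 in penicillin livers, against 14.80, 14.81 and 14.85 in controls. The groups overlapped within a range of 0.083 over all 12 arrays. The difference was -0.02 (SE 0.04, 95% interval -0.10 to 0.07; limma adjusted p = 0.953), which leaves a ratio of penicillin to control between 0.933 and 1.05. All 4 Apoa1 probesets gave differences of -0.02.

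Apoc3, which encodes an inhibitor of triglyceride clearance, lay at 14.37, 14.41 and 14.45 in penicillin livers, against 14.40, 14.40 and 14.47 in controls. The difference rounded to 0.00 (-0.0047, SE 0.04, 95% interval -0.09 to 0.08; limma adjusted p = 0.987). Apoa5, which encodes an activator of lipoprotein lipase action, lay at 13.32, 13.41 and 13.48 in penicillin livers, against 13.27, 13.46 and 13.55 in controls. Its difference was -0.01 (SE 0.06, 95% interval -0.14 to 0.12; limma adjusted p = 0.983), and the control mice spread more widely (SD 0.12) than the penicillin mice (SD 0.06, n = 6 each). The intensities of Apoa1 and Apoc3 lay close to the highest value in the table, 15.16, where array signal can saturate. Whether saturation narrowed their differences was not tested.

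Apoa4 varied most among the apolipoproteins. It encodes an apolipoprotein of gut and liver whose mouse liver level is known to follow feeding, fasting and fat content. Its brightest probeset lay at 9.84, 10.26 and 10.47 in penicillin livers, against 9.70, 10.21 and 10.57 in controls. The lowest values were those of control 5 and penicillin 6 and the highest that of control 1, and the controls alone spanned the whole range of 0.876, with all penicillin arrays inside it. The difference was 0.02 (SE 0.14, 95% interval -0.28 to 0.32; limma adjusted p = 0.983). The other Apoa4 probeset gave 0.03 and had the same lowest and highest arrays.

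Whether the levels of the neighbouring genes moved together from mouse to mouse was examined over the 12 arrays. Of 7 pairs examined, the 6 within the cluster and Apob with Mttp, none had an adjusted p under 0.05. Pearson's r was largest in size for Apoc3 with Apoa5, at -0.51 (permutation p = 0.0893, adjusted p = 0.426) and Spearman's rho = -0.34 (permutation p = 0.287, adjusted p = 0.502). By Spearman's rho Apoa1 with Apoa4 was larger in size, at -0.39 (permutation p = 0.210, adjusted p = 0.502), as was Apoa4 with Apoa5, at 0.36 (permutation p = 0.247, adjusted p = 0.502). Without penicillin 4 and control 5, the arrays farthest from the Apoc3 median, the r of Apoc3 with Apoa5 was 0.06, so the value of -0.51 rested on those 2 arrays. Within groups it was -0.44 in penicillin (exact p = 0.382) and -0.63 in control livers (exact p = 0.114). Some pairs had unlike values in the groups, with the difference between groups not tested. Apob with Mttp had r = -0.90 in penicillin (exact p = 0.0111) and 0.44 in control livers (exact p = 0.389). Over all 12 arrays it had r = -0.02 (permutation p = 0.944), and the other Mttp probeset was not examined. Apoc3 with Apoa4 had r = 0.12 in penicillin (exact p = 0.843) and -0.86 in control livers (exact p = 0.025). These exact p-values are unadjusted, with each of the 7 pairs examined in each group. Over both groups Apoc3 with Apoa4 had r = -0.41, against -0.14 without penicillin 4 and control 5, where control 5 was both the highest control for Apoc3 and the lowest array for Apoa4.

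Apob and Mttp act at the first step of very low density lipoprotein assembly. Apob, which encodes the structural protein of the particle, lay at 13.87, 13.97 and 14.01 in penicillin livers, against 13.82, 13.96 and 14.13 in controls. The difference was -0.02 (SE 0.06, 95% interval -0.14 to 0.11; limma adjusted p = 0.967), a ratio between 0.908 and 1.08. A much dimmer second Apob probeset differed by -0.11, with an SD of 0.25 in penicillin and 0.47 in control livers. Mttp, which encodes the triglyceride transfer protein that loads lipid onto apolipoprotein B, lay at 10.53, 10.76 and 10.96 in penicillin livers, against 10.45, 10.58 and 10.89 in controls. The difference was 0.11 (SE 0.09, 95% interval -0.10 to 0.31; limma adjusted p = 0.825). The arrays overlapped widely, the other Mttp probeset gave -0.0077, and without control 1, control 3 and control 5 the difference of the first was 0.03.

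The bases before the start of Apob are shown as a gene that differed little between the groups, although Apoa1 and Apoc3 varied less from mouse to mouse. Those of Apoa5 are shown as a neighbour in the chromosome 9 cluster, and those of Cd36 as the gene that stood higher. Each run is the 250 bases before a RefSeq transcript start in GRCm38.p6, read 5′ to 3′ on the gene's strand, with capitals for matches on either strand to 6 motifs. These are the TATA box in the form TATAAA, the core of the site of the hepatocyte factor HNF4 in the form CAAAGG, and the nuclear receptor hexamer in the form AGGTCA. The others are the GC box in the form GGGCGG, the E-box in the form CACGTG and the letters CCAAT. No match overlapped another in the windows shown. Of the 9 genes, 6 had a window in the table, and the first of both Apoa5 windows is given. Among the windows not shown, those of Apoa1 and Apoa4 held no match to these motifs, and that of Mttp held an HNF4 core.
Apob, chr12:7977427-7977676, + strand: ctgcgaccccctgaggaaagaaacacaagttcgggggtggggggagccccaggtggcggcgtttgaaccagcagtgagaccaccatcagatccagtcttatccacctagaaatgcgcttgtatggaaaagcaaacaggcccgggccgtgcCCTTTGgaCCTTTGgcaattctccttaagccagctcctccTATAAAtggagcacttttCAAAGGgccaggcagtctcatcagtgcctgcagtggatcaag
Apoa5, chr9:46268358-46268607, + strand: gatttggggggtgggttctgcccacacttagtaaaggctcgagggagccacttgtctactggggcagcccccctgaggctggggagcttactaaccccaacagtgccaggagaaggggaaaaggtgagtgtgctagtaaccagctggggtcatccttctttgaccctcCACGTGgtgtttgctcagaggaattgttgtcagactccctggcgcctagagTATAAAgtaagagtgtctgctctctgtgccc
Cd36, chr5:17835897-17836146, - strand: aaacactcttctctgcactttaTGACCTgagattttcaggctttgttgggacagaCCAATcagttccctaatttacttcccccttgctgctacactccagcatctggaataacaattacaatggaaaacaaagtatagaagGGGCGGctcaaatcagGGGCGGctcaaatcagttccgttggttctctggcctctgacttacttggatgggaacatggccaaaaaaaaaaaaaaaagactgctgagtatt
The Apob window held 3 matches to the HNF4 core, at bases -100 to -95, -92 to -87 and -42 to -37 from the start, and a TATA box at -60 to -55. Of 32851 such windows of all genes, 17.6% held at least 1 HNF4 core and 12.4% a TATA box. The Apoa5 window held an E-box, the element that clock factors among others bind, at -82 to -77 (6.02% of windows) and a TATA box at -31 to -26. The Cd36 window held a nuclear receptor hexamer at -228 to -223 (14.0% of windows), a CCAAT box at -195 to -191 (33.8%) and 2 GC boxes (32.7%). It held neither a TATA box nor an HNF4 core by these letters. These are letter matches, not measured binding, and the array does not show which start was used.

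**Figure D2:**
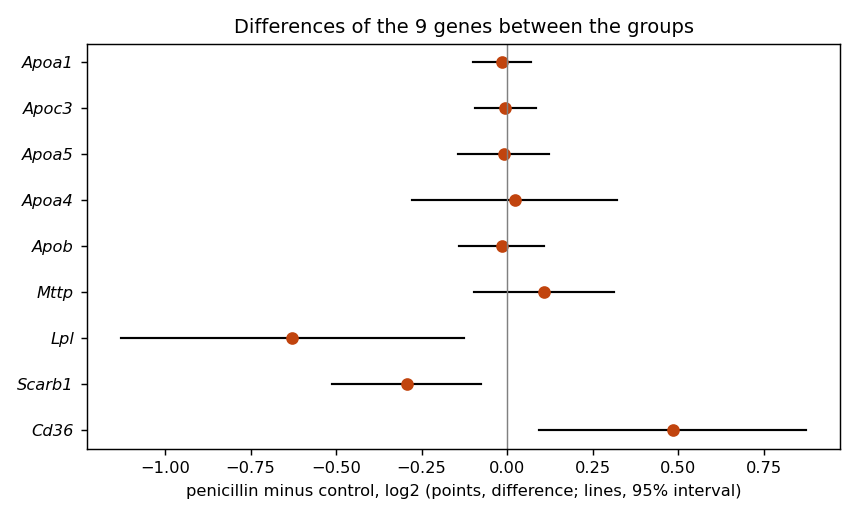
Difference between penicillin and control livers for 9 lipoprotein genes in log2 units, with 95% intervals from limma. The intervals of Lpl (-1.13 to -0.13), Scarb1 (-0.51 to -0.08) and Cd36 (0.09 to 0.87) lie to one side of 0 before adjustment for the number of genes tested; those of the other 6 genes span 0.

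Lpl, which encodes lipoprotein lipase, lay at 8.24, 9.29 and 9.82 in penicillin livers, against 9.44, 9.75 and 10.07 in controls. Penicillin 1 (8.24) and penicillin 3 (8.68) were the 2 lowest of all arrays, 4 of 6 penicillin arrays lay below every control, and penicillin 2 (9.82) lay above the control median. The means were 9.14 ± 0.59 in penicillin and 9.77 ± 0.25 in control livers (SD, n = 6). The difference was -0.63 (SE 0.23, 95% interval -1.13 to -0.13), with an exact permutation p of 0.0281 (two-sided) and a limma adjusted p of 0.570. The second Lpl probeset gave -0.69, with 5 of 6 penicillin arrays below every control and the same 2 arrays lowest.

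Penicillin 1 and penicillin 3 were also the lowest arrays for markers of stellate cells and fibroblasts. The mean of 5 measured markers of 6 lay at -0.52 and -0.38 in these 2 arrays on the log2 scale, in a range of -0.52 to 0.28 in penicillin and -0.22 to 0.37 in control livers, and Col1a1 was under the filter. Markers of bile duct cells (4 of 4 measured) were likewise lowest there, at -0.53 and -0.32, in a range of -0.53 to 0.08 in penicillin and 0.07 to 0.27 in control livers. Of 6 endothelial markers, all measured, the mean ranged from -0.31 to 0.07 in penicillin and from -0.17 to 0.40 in control livers. Of 5 adipocyte markers, 3 were named and only Retn passed the filter, with Adipoq and Lep under it. In tissue RNA, fewer cells of a type and less RNA per cell cannot be told apart, and the part of these markers in the Lpl difference was not tested. The difference was -0.45 without penicillin 1 alone. It was -0.41 when control 6, penicillin 5 and penicillin 6 were left out as well, with an unadjusted limma p of 0.133.

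Scarb1 encodes SR-BI, the high density lipoprotein receptor of hepatocytes and of sinusoidal endothelium. Its brightest probeset lay at 10.25, 10.59 and 10.73 in penicillin livers, against 10.63, 10.83 and 11.16 in controls. All 6 penicillin arrays lay below the control median and 4 of 6 below every control, the lowest being penicillin 3 and the highest of all arrays control 2. The means were 10.55 ± 0.18 in penicillin and 10.84 ± 0.19 in control livers (SD, n = 6). The difference was -0.29 (SE 0.10, 95% interval -0.51 to -0.08), with an exact permutation p of 0.0173 (two-sided) and a limma adjusted p of 0.570. The other 2 Scarb1 probesets gave -0.25 and -0.17. They did not separate the groups alike, since 4 of 6 penicillin arrays lay below every control on one and 1 of 6 on the other. Control 2 was also the highest array for the endothelial markers (0.40), and their part in the Scarb1 values was not tested. The difference was -0.36 without control 1, control 3 and control 5.

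Cd36, which encodes a fatty acid transporter that is normally low in mouse hepatocytes and known to be high in fatty liver, stood higher in penicillin livers. It lay at 8.93, 9.19 and 9.78 in penicillin livers, against 8.38, 8.72 and 9.42 in controls. All 6 penicillin arrays lay above the control median, and control 6 was the 1 control that lay among them. The means were 9.25 ± 0.32 in penicillin and 8.77 ± 0.37 in control livers (SD, n = 6). The difference was 0.48 (SE 0.18, 95% interval 0.09 to 0.87), with an exact permutation p of 0.0368 (two-sided) and a limma adjusted p of 0.570. The other 2 Cd36 probesets gave 0.60 and 0.51, and on all 3 probesets penicillin 5 was the highest array.

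The lowest Cd36 values, 8.46 and 8.38, were those of control 1 and control 3, where the immediate early genes were highest. Without control 1, control 3 and control 5 the difference was 0.23, with an unadjusted limma p of 0.291. Leaving out the arrays with a high mean of the clock list (control 6, penicillin 1, penicillin 5, penicillin 6) gave 0.64. Leaving out control 6 alone gave 0.61 (limma adjusted p = 0.229). Markers of Kupffer cells and macrophages, which also carry CD36, had 7 of 7 measured, with a mean of -0.28 to 0.15 in penicillin and -0.21 to 0.38 in control livers. Of those 7 markers, 1 was higher and 6 were lower in penicillin livers. Control 6, the highest control for Cd36, was also the highest of all arrays for these markers (0.38). The part of these markers in the Cd36 values was not tested.

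**Figure D3:**
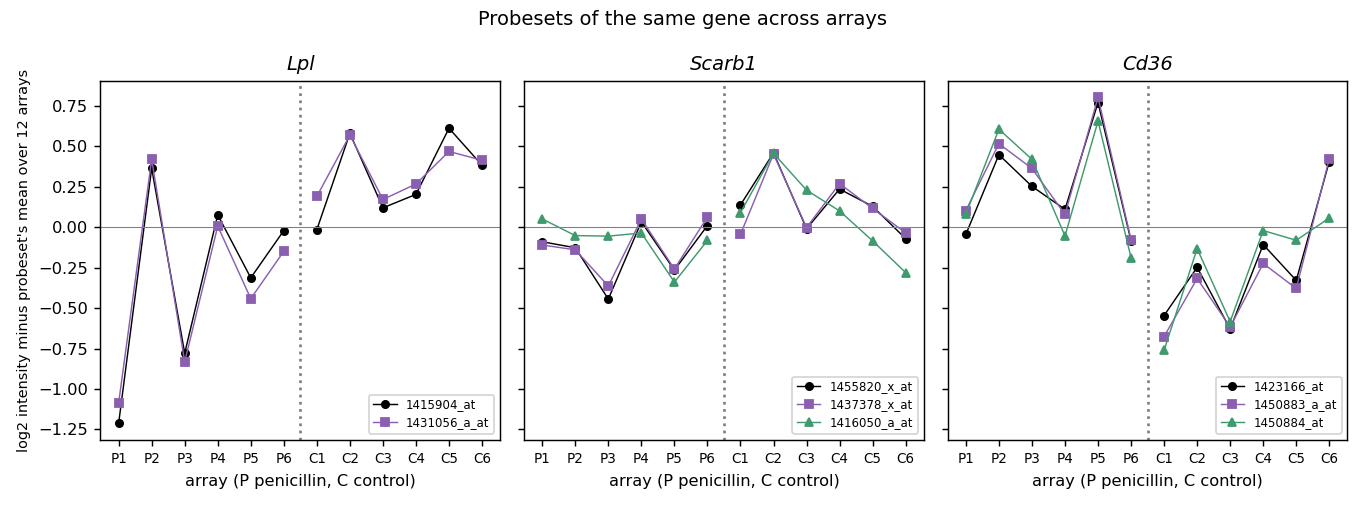
Log2 intensity of every probeset of Lpl, Scarb1 and Cd36 on each array, as the deviation from that probeset's mean over 12 arrays, with penicillin arrays left of the dotted line and controls right of it. The 2 Lpl probesets and 3 Cd36 probesets follow each other closely, with group differences of -0.63 and -0.69 for Lpl and 0.48, 0.60 and 0.51 for Cd36.

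The 9 genes were carried by 20 probesets, all of which passed the filter on dim signal. Of the 7 genes with several probesets, 6 had differences of the same sign on all of them, the exception being Mttp. Spread within groups differed widely between the genes. The within-group SD was 0.019 for Apoa1 and 0.029 for Apoc3, at percentiles 0.034 and 0.18 of all genes tested, and 0.083 for Apob and 0.095 for Apoa5. It was 0.17 for Mttp, 0.18 for Scarb1, 0.26 for Apoa4, 0.35 for Cd36 and 0.45 for Lpl, beside a median of 0.15 over all genes. The 3 genes with an unadjusted p under 0.05 were thus among the 4 with the widest spread.

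**Figure D4:**
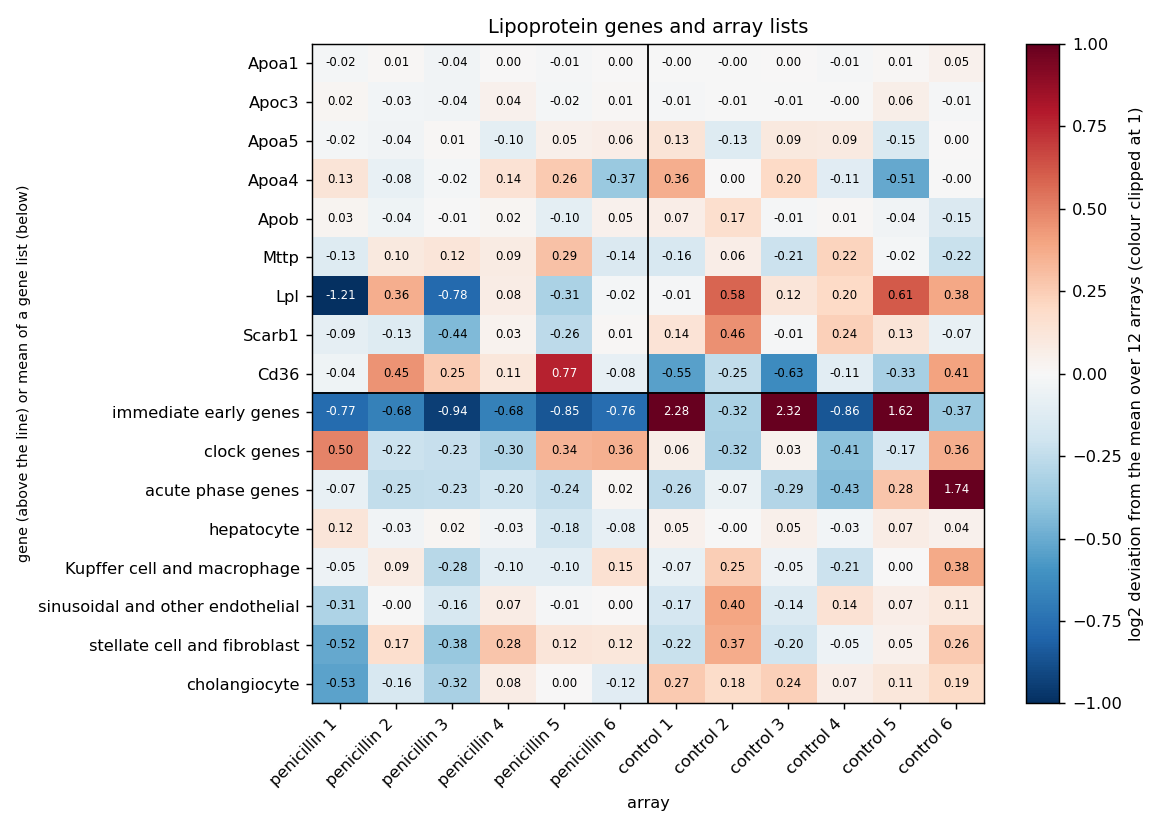
Log2 deviation of each lipoprotein gene (rows above the line) and of the mean of each gene list (rows below) from its mean over 12 arrays, penicillin at left and control at right of the vertical line; colour is clipped at 1 and the numbers are not. Lpl is lowest in penicillin 1 and penicillin 3, as are the stellate and bile duct lists, and Cd36 is lowest in control 1 and control 3.

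Other genes of lipoprotein metabolism were set in 6 lists of 52 genes, of which 45 were tested. Over all lists 28 were higher and 17 lower in penicillin livers, and 0 passed over all genes in limma. An unadjusted p under 0.05 was found for 6 of them, namely 4 on the higher and 2 on the lower side, or 13.3% beside 7.98% of all genes, and for 2 of 45 when control 1, control 3 and control 5 were left out, where the share of all genes was 4.1%. The median absolute difference was 0.068 on the log2 scale over these 45 genes and 0.068 over all genes tested. In 0 of them did the groups separate fully.

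Of 9 other apolipoproteins, 6 were higher and 3 lower, with a median difference of 0.01, and 8 of them lay within 0.04 of 0. The exception was Apom, the carrier of sphingosine 1-phosphate on high density lipoprotein, at 12.51 ± 0.11 in penicillin and 12.67 ± 0.12 in control livers (SD, n = 6). Its difference was -0.17 (SE 0.07, limma adjusted p = 0.593), with 2 of 6 penicillin arrays below every control. Apof, which encodes a minor apolipoprotein, was next by p, at 0.04. Apoa2 (mean 14.80 in penicillin livers), Apoe (14.61), Apoh (14.26) and Apoc1 (14.19) lay near the top of the scale, like Apoa1 and Apoc3. Whether saturation narrowed their differences was not tested.

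Of 8 genes of lipoprotein assembly and secretion, 4 were higher and 4 lower, with a median of 0.00 (0.0019). Sar1b, the small GTPase that carries large lipoprotein particles out of the endoplasmic reticulum, lay at 12.42 ± 0.06 in penicillin and 12.26 ± 0.08 in control livers (SD, n = 6). The difference was 0.16 (SE 0.05, 95% interval 0.05 to 0.27; limma adjusted p = 0.546), and 5 of 6 penicillin arrays lay above every control. It was 0.18 without control 1, control 3 and control 5. P4hb, which encodes protein disulphide isomerase, the partner subunit of the triglyceride transfer protein, differed by -0.10 (SE 0.05, limma adjusted p = 0.665).

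Of 8 lipases and their cofactors tested, 5 were higher and 3 lower, with a median of 0.05. Angptl8, which encodes a feeding-induced inhibitor of lipoprotein lipase, lay at 7.95, 8.39 and 10.23 in penicillin livers, against 8.48, 9.43 and 10.96 in controls. The difference of -1.02 (SE 0.51, limma adjusted p = 0.659) rested on a few arrays. Penicillin 5, control 1, control 3 and control 5 lay above 10 and the other 8 arrays below 9. Without control 1, control 3 and control 5 it was -0.00053. Lipg, which encodes endothelial lipase, was at 6.81 ± 0.81 in penicillin and 6.11 ± 0.65 in control livers (SD, n = 6), a difference of 0.70 (SE 0.37, limma adjusted p = 0.680) led by penicillin 1 at 8.15. Leaving out the 4 arrays with a high mean of the clock list gave 0.31.

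Of 10 receptors and adaptors 5 were tested, 3 higher and 2 lower, with a median of 0.03, while Vldlr and Lrp8 were under the filter on dim signal. Mylip encodes IDOL, the ubiquitin ligase that marks lipoprotein receptors for breakdown, and lay at 8.59 ± 0.19 in penicillin and 8.84 ± 0.12 in control livers (SD, n = 6). Its difference was -0.25 (SE 0.09, 95% interval -0.44 to -0.06; limma adjusted p = 0.570), with 4 of 6 penicillin arrays below every control. Pdzk1, the scaffold that holds SR-BI at the hepatocyte surface in mice, lay at 8.97 ± 0.09 in penicillin and 8.85 ± 0.05 in control livers (SD, n = 6), with 4 of 6 penicillin arrays above every control. The difference was 0.12 (SE 0.05, limma adjusted p = 0.609), on the higher side, where Scarb1 itself was on the lower.

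Of 4 sterol and lipid exporters, 3 were higher and 1 lower, with a median of 0.03. Abcg5 and Abcg8, the paired exporters of cholesterol into bile, differed by 0.05 (SE 0.17) and 0.08 (SE 0.14). Without control 1, control 3 and control 5 they stood at -0.17 and -0.03. Of 11 transcription factors of these genes tested, 7 were higher and 4 lower, with a median of 0.06. Pparg, a nuclear receptor of which Cd36 and Lpl are known targets, stood at 7.63 ± 0.38 in penicillin and 7.00 ± 0.25 in control livers (SD, n = 6), a difference of 0.63 (SE 0.17, limma adjusted p = 0.430). Without control 1, control 3 and control 5 the Pparg difference was 0.46, with an unadjusted limma p of 0.0572. The highest Pparg array was penicillin 5, as for Cd36, and Lpl in penicillin 5 was at 9.14, below every control. The relation of Pparg to Cd36 and Lpl was not tested. Cebpa, a factor of hepatocyte and fat cell differentiation, differed by 0.26 (SE 0.10, limma adjusted p = 0.571), with its lowest value, 10.08, in control 5.

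**Figure D5:**
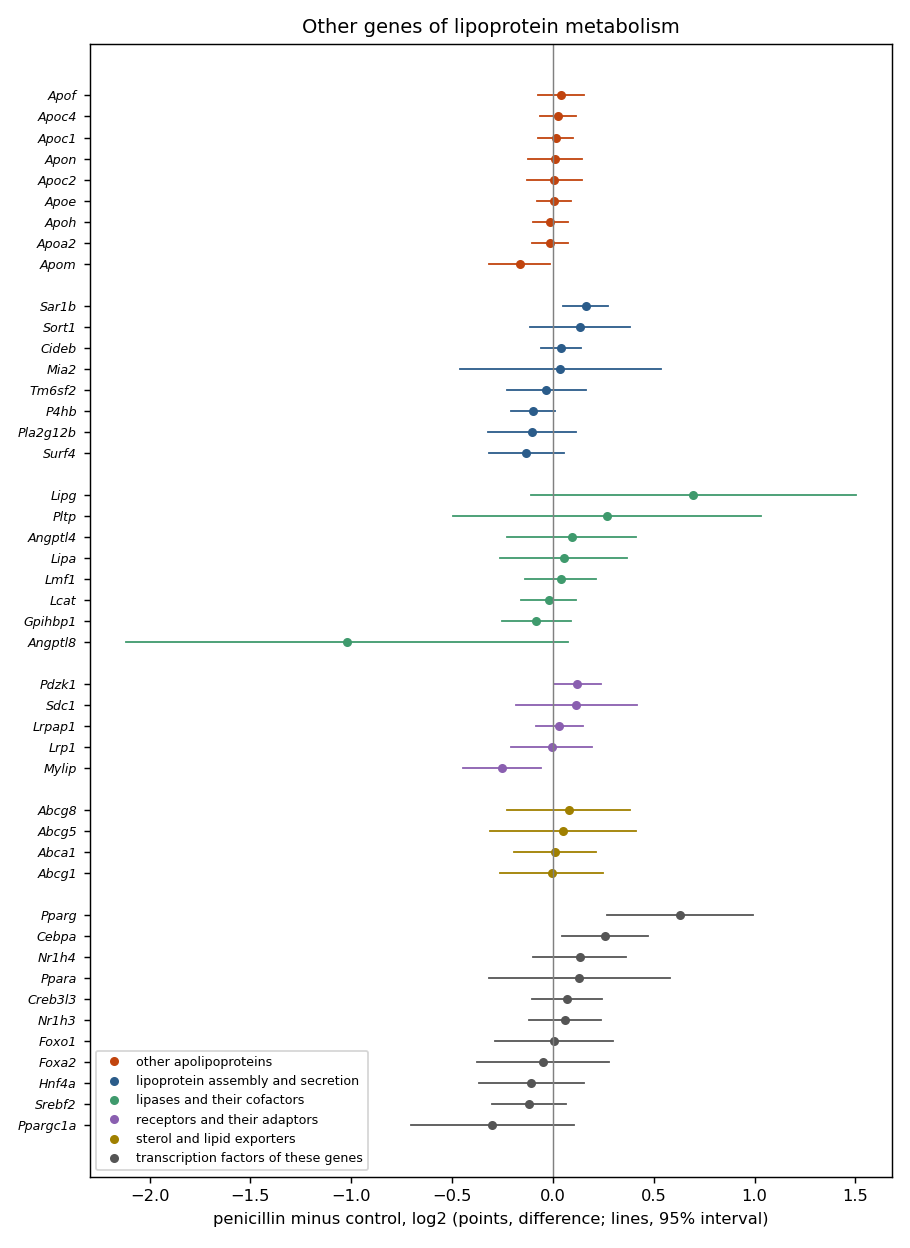
Difference between penicillin and control livers for 45 other genes of lipoprotein metabolism in log2 units, with 95% intervals from limma, coloured by list and sorted within it. The interval of Angptl8 is among the widest (-2.12 to 0.08), while 8 of 9 other apolipoproteins lie within 0.04 of 0.

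The 3 genes most like each of the 9 were taken by Pearson's r over the 12 arrays with group means removed, as a description. With 12 arrays a high r is easily found, and the highest r of any gene with another had a median of 0.93 over all genes tested. The highest r of 5 of the 9 lay above that median and of 4 at or under it. Lpl was most like Abi3bp (0.94), Scd2 (0.92) and Tmem203 (0.91). Cd36 was most like Fam126a (0.94), L3hypdh (0.91) and Traf5 (0.89), and Scarb1 most like Hmgn5 (0.90), Ptprb (0.89) and Dlg3 (0.86). Mttp was closest to Tmem135 (0.97), Ces2a (0.94) and Stam (0.94), and Apob to Sptan1 (0.97), Prpf8 (0.93) and Klkb1 (0.91). Apoa1 was closest to Tff3 (0.93), Cbr3 (0.93) and Aldoc (0.92), Apoc3 to Ptges3l (0.88), Osbpl8 (0.87) and Cct4 (0.87), Apoa5 to Gtpbp4 (0.89), Zfp445 (0.89) and Mrs2 (0.87), and Apoa4 to Ppp4r3b (0.84), Iffo2 (0.84) and Tgds (0.83). No gene of the family was among the 3 closest of another.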

How the data were processed

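Liver RNA of 6 penicillin-treated and 6 control males was labelled from the 3-prime end and measured on 12 Affymetrix arrays, per the labels' protocols. RMA was applied by the authors, as the submitters' processing notes name it, and what they deposited is an intensity per probeset. No software version or setting is given in the sources used here. The intensities were linear, so log2 was taken here. Since RMA equalises the distributions of arrays, a shift common to most genes would be lost. The files hold no detection calls, and the number of arrays limits the precision.

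Of 45101 probesets, 64 were controls. Probesets whose mean was under the median of the others (4.73 on the log2 scale) were left out, and each gene was taken as its brightest probeset with a single gene in the platform annotation. Symbols were updated by gene identifier with a RefSeq table of GRCm38.p6 (18033 identifiers found, 162 not). Penicillin minus control was tested with limma 3.58.1 in R 4.3.3, two-sided, with Benjamini-Hochberg adjustment over 11899 genes at 0.05. The exact permutation test ran over all 924 assignments, with a smallest possible p of 0.00216. The fit was first tested on simulated data, where it recovered 86% of 1.5-fold and 94% of 2-fold changes, with 16 false calls. Genes and arrays were drawn independently there, so deviations shared by several arrays were not part of that test. Genes named were the family, 2 genes of smallest p in each pathway list, and 3 most alike for each member; values named beyond this rule were chosen after they were seen. The family, lists, tests and alternatives were chosen with earlier results of these data known.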

Additional observations from a re-analysis of the deposited data

Results flagged for a closer look

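In 42 groups of 6 arrays (21 genes in each treatment group), a gap between the outermost array and its nearest neighbour that was large against the group's range (above Dixon's critical value at 95%) was found in 4. Chance flags about 1 in 20 groups. Apoa1 was highest in control 6, at 14.85 in log2 intensity, beside 14.82 for the next control. Apoc3 was highest in control 5, at 14.47, beside 14.41. Both gaps are small in size, since the other controls were nearly alike. Angptl8 stood at 10.23 in penicillin 5, beside 8.56 for the next penicillin array. Abcg8 stood at 9.17 in control 6, beside 8.69 for the next control.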

How the results depend on the processing

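Of the 9 lipoprotein genes, 0 were called in the full comparison and 0 under any of the 22 other fits, and the same held for all genes tested and for the 45 other pathway genes. The exact permutation test also called 0 of the 9 after adjustment (adjusted p from 0.597 to 0.985). Lpl kept its lower side throughout, with differences of -0.76 to -0.41, as did Scarb1 (-0.37 to -0.23) and Apoa1 (-0.020 to -0.0078), and Cd36 (0.23 to 0.64) and Mttp (0.03 to 0.16) their higher side. Fits that changed only the filter, the prior variance or the blocking by replicate number gave these genes the same differences by design. They are no check on the side, and neither is the exact test.

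Differences near 0 changed sign. With single arrays left out, Apoa4 ran from -0.078 to 0.098, Apoa5 from -0.041 to 0.015, Apob from -0.047 to 0.016, Apoc3 from -0.013 to 0.0061, and Abcg5 from -0.058 to 0.17. Without control 1, control 3 and control 5, Apoa5 was at 0.010, Apoc3 at 0.0052, Apof at -0.026, Abcg8 at -0.031 and Abcg5 at -0.17. Without control 6, penicillin 1, penicillin 5 and penicillin 6, Abcg8 was at -0.045 and Abcg5 at -0.058. With median centring Apoc3 was at 0.0015. The cause was not tested.

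The labels number the mice of both groups from 1 to 6. Arrays of the same number correlated at -0.26 to 0.39 in their deviations from group means, over 0.1 in 4 of 6 pairs, and 2 of 6 penicillin arrays were closest to the control of their own number, so the numbers were not taken as pairs. With the replicate block 0 genes passed, and 1214 had an unadjusted p under 0.05 against 950 without it. Each number holds 1 array of each group, so the block cannot change a difference, only its p. The unadjusted limma p of Lpl was 0.00264 with the block and 0.0180 without it. For Scarb1 it was 0.00931 against 0.0122, and for Cd36 0.0316 against 0.0188.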
